A study of Daphnia magna with 45 samples.

Results

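Whole Daphnia magna, a freshwater crustacean, were exposed to isoprenaline together with propranolol or to isoprenaline alone, and their messenger RNA was sequenced after 1 and 6 h. The comparison of the mixture with isoprenaline alone rests on 12 of the 45 libraries of the series, 6 per exposure and 3 per exposure and hour. They were taken by the exposure and hour in their titles, and no measured value was used. In the mixture, isoprenaline at 100 mg/L was joined by propranolol at 1 mg/L, and the solutions it is compared with contained isoprenaline at 100 mg/L only, so both sets of animals received the same dose of isoprenaline. A further 12 libraries at 1 and 6 h, 3 per exposure and hour, came from animals in propranolol at 1 mg/L without isoprenaline and from control animals, and 8 libraries came from propranolol at 4 mg/L. All animals were females of the strain Xinb3 aged 5 days, kept as 20 animals in 35 mL, and each library comes from whole bodies. In whole bodies, fewer cells of a type and less RNA per cell cannot be told apart.

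Isoprenaline activates the beta-adrenergic receptors of vertebrates, and propranolol blocks the same receptors. Arthropods use octopamine and tyramine, amines related to noradrenaline and adrenaline, which act through related receptors. The heart of Daphnia can be seen through the carapace, and its rate has long been used to follow drugs of this kind. The comparison asks what adding the blocker changes when the activator is already present. Its values are given per ID of the deposited table. The files do not pair these IDs with gene names, and 0 of them matched the reference table, so no pathway, receptor or tissue marker could be looked up, and the label of whole body could not be checked against markers.

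The values are CPM, read counts that the authors had brought to the same total of 1000000 in every library, and differences are on the scale of log2(CPM + 1), on which the change of a low ID is understated. The 12 libraries held 13.5 to 40.9 M reads. The 6 mixture libraries held 21.1 to 40.9 M reads and the 6 isoprenaline libraries 13.5 to 23.3 M. The mean difference of 7.74 M reads had an exact two-sided permutation p of 0.025 within hours, and 0.125 after adjustment over 5 measures of the libraries. The smallest p this design allows is 0.005. The other 4 measures, among them the share of the 10 most abundant IDs (10.4 to 12.5% in the mixture, 10 to 12.6% in isoprenaline) and the number of IDs at 0 (24 to 63 in the mixture, 27 to 169 in isoprenaline), had exact permutation p of 0.35 to 0.89.

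Before any ID is compared, 3 of the 12 libraries stood apart. On the first principal component, which held 58.1% of the variance, mixture replicates 1 and 2 at 6 h lay at 53.8 and 106 and isoprenaline replicate 2 at 1 h lay at 118. The other 9 libraries lay between -46.4 and -11.1. These 3 libraries correlated with the other 9 at r of 0.761 to 0.946 over IDs. Among the 9, mixture and isoprenaline libraries of the same hour correlated at 0.974 to 0.987 (9 pairs), and libraries of the same exposure and hour at 0.957 to 0.989 (7 pairs). In these 9 libraries the range between the exposures thus lay within the range between replicates. In a map of the 24 libraries that include propranolol at 1 mg/L and control, all 3 controls at 6 h lay on the same side as these 3 libraries (14.2 to 102), and the 3 controls at 1 h lay on the other (-65.7 to -33.2). Libraries of propranolol at 1 mg/L lay on both sides at each hour, from -42.3 to 103 at 6 h and from -67.6 to 95 at 1 h. Each main result is therefore also given without the 3 libraries, a choice made after the data were seen. That leaves 1 mixture library at 6 h, which is then assumed to vary like the other groups.

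**Figure D1:**
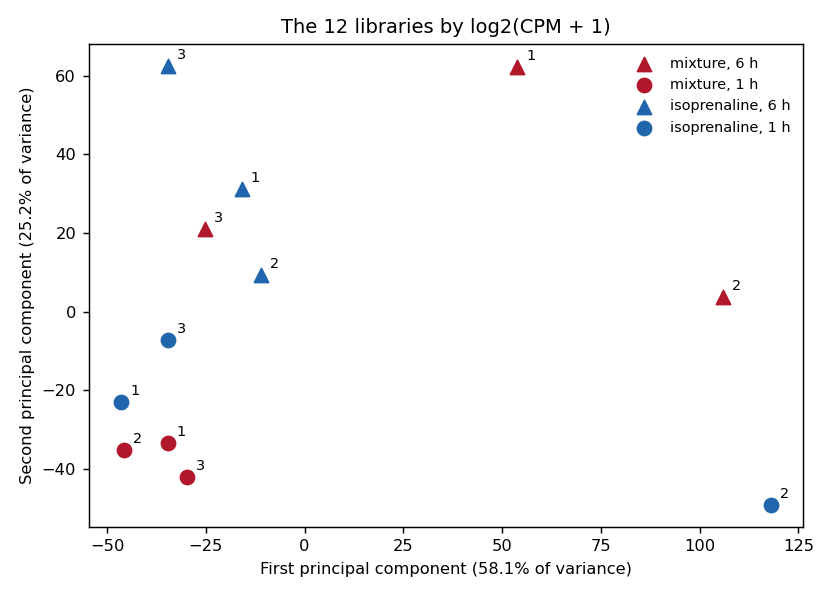
The 12 libraries on the first and second principal components of log2(CPM + 1) over IDs, with mixture in red, isoprenaline in blue, triangles for 6 h, circles for 1 h and replicate numbers beside the points. Mixture replicates 1 and 2 at 6 h (53.8 and 106) and isoprenaline replicate 2 at 1 h (118) lie to the right of the other 9 libraries, which lie between -46.4 and -11.1.

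No ID passed the test between the mixture and isoprenaline alone over both hours. With hour as a block, limma called 0 of 17722 IDs tested (0%) at an adjusted p under 0.05, and the smallest adjusted p was 1. At an unadjusted p under 0.05 there were 88 IDs (0.497%). Where nothing differs, a share of about 0.05 of IDs would fall there, so the share found was well below it. In this fit a difference that is opposite at the hours counts as spread, which also widens the intervals given below. Whether this lowered the share was not tested. edgeR on whole reads recovered from the CPM values also called 0, with 85 IDs at an unadjusted p under 0.05. Without the 3 libraries that stand apart limma again called 0, of 17375 IDs, with 754 (4.34%) at an unadjusted p under 0.05. Leaving out each of the 12 libraries in turn gave 0 calls every time, with 38 to 575 IDs at an unadjusted p under 0.05. Nothing in the labels tells whether the replicates are separate cultures. These p-values therefore measure only the spread between libraries, and that spread may be technical.

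A count of 0 does not show that the exposures act alike, so the sizes that the data leave room for were measured. The median difference over the 17722 IDs was -0.00026 on the log2 scale, and the middle 95% of IDs lay between -0.39 and 0.30. The most extreme IDs were at -2.12 and 1.41. The 95% interval of an ID reached a median of 0.32 to either side of its difference. For 89.1% of IDs the whole interval lay within 1 log2 unit of 0, which is a 2-fold change of CPM + 1. For 66.6% it lay within 0.5, a 1.41-fold change of CPM + 1. For an ID of few CPM, the same interval leaves room for a larger fold change of the CPM itself. The shares within 1 and within 0.5 were 92.5% and 76.6% without the 3 libraries, and the median half-width was 0.26.

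The precision did not rise steadily with abundance. Of the 5852 IDs with means of 20 to 100 CPM, 70.4% had intervals within 0.5, against 60% of the 1704 IDs at 100 CPM or more and 63% of the 4558 IDs under 5 CPM. Intervals lay within 1 for 95.2% of the IDs under 5 CPM, where the scale understates changes, and for 79.6% of those at 100 CPM or more. Among the 100 most abundant IDs, each at a mean of at least 980 CPM, differences ran from -0.65 to 0.46, 0 were called and 88% had intervals within 1. Differences over 1 log2 unit in size were seen for 36 IDs, 4 higher and 32 lower in the mixture, with a median standard error of 0.67. Of these, 0 had a mean under 5 CPM. The interval of 19 of these 36 included 0, and in 0 of them did the mixture libraries lie wholly on the same side of the isoprenaline libraries at both hours. The number over 1 was 136 without the 3 libraries, and it ran from 24 to 442 with each of the 12 left out in turn, the highest without isoprenaline replicate 2 at 1 h.

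**Figure D2:**
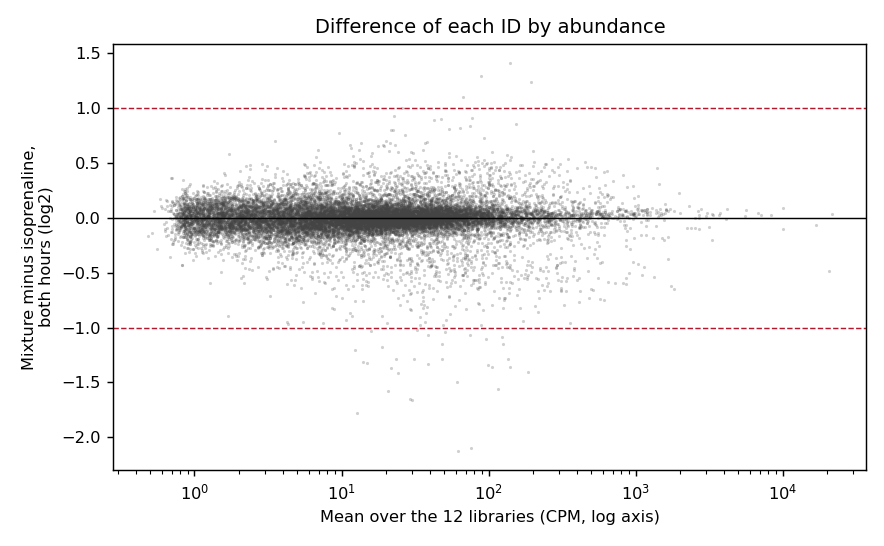
The difference between mixture and isoprenaline over both hours (log2, vertical axis) for each of 17722 IDs, against its mean over the 12 libraries (CPM, log axis), with dashed lines at 1 log2 unit above and below 0. All but 36 IDs lie between the dashed lines, and 32 of those 36 lie under the lower one.

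Nor was any ID called at a single hour, in a fit of the 4 group means. At 6 h limma called 0 of 17722 IDs (0%), with 310 (1.75%) at an unadjusted p under 0.05, and edgeR called 0 with 300. At 1 h limma called 0 (0%), with 394 (2.22%) unadjusted, and edgeR called 0 with 345. The test of whether the difference itself changed with the hour (6 h minus 1 h) also gave 0 calls (0%), with 885 IDs (4.99%) unadjusted, and edgeR gave 0 with 753. Without the 3 libraries the comparison at 6 h and the change with the hour each gave 1 call, and it was the same ID, Dapma7bEVm003567t1, which was chosen for naming after its values were seen. It had 18.4, 15.1 and 0 CPM in the mixture libraries at 6 h, against 15.2, 15 and 15.8 CPM in the isoprenaline libraries at 6 h. The other 11 of the 12 libraries held 13.3 to 18.4 CPM, so the call rests on 1 library with 0 reads.

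The libraries were also compared by whether the exposures overlapped. At 6 h the 3 mixture libraries lay wholly above the 3 isoprenaline libraries for 532 IDs (3%) and wholly below for 509 (2.87%). At 1 h they lay wholly above for 298 IDs (1.68%) and wholly below for 1178 (6.65%). At both hours 2 IDs (0.0113%) were wholly higher and 6 (0.0339%) wholly lower. Between the hours 54 (0.305%) changed sides, 45 of them higher at 6 h and lower at 1 h (0.254%) and 9 the reverse (0.0508%). Groups of 3 libraries can lie wholly apart by chance, and these counts were not set against the numbers that chance would give.

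Of the 6 IDs that were wholly lower in the mixture at both hours, the naming rule picked those with the smallest unadjusted p and a mean of at least 5 CPM, Dapma7bEVm005120t1 and Dapma7bEVm002949t1. Neither of the 2 higher IDs reached that mean. Dapma7bEVm002949t1 held 98.9, 108 and 86.5 CPM in the mixture at 6 h, against 130, 145 and 109 CPM in isoprenaline at 6 h. At 1 h it held 65.3, 30.7 and 13.4 CPM in the mixture, against 79.2, 72.2 and 134 CPM in isoprenaline. The mixture libraries were lower than those of isoprenaline at both hours, and those at 1 h were spread over a wider range. The difference over both hours was -0.98 ± 0.36 (log2, SE, n = 6 against 6), with a limma adjusted p of 1. Control libraries held 64.3, 72.5 and 55.7 CPM at 6 h and 97.7, 72.5 and 79.3 CPM at 1 h, so the mixture lay above every control at 6 h and below every control at 1 h.

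Dapma7bEVm005120t1 held 7.29, 8.63 and 7.85 CPM in the mixture at 6 h, against 8.64, 8.73 and 8.85 CPM in isoprenaline at 6 h. At 1 h it held 7.81, 7.39 and 7.05 CPM in the mixture, against 9.75, 8.82 and 9.37 CPM in isoprenaline. The highest mixture library at 6 h and the lowest isoprenaline library almost met. The difference over both hours was -0.21 ± 0.07 (log2, SE, n = 6 against 6), with a limma adjusted p of 1.

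The differences at the hours ran against each other in the 12 libraries, and this rested on isoprenaline replicate 2 at 1 h, one of those that stand apart. Over 17722 IDs the difference at 6 h and that at 1 h correlated at r of -0.771, and 27.2% of IDs had the same sign at both. The hours share no library. Without that library alone the correlation was 0.148, while it was -0.684 without mixture replicate 1 at 6 h and -0.641 without mixture replicate 2 at 6 h. Without all 3 libraries it was 0.255, with 58.3% of IDs of the same sign. The first principal component moved with the exposures in opposite ways, with mixture minus isoprenaline at 65.5 at 6 h and -49 at 1 h. The part of that component in the correlation was not tested other than by leaving out these libraries.

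**Figure D3:**
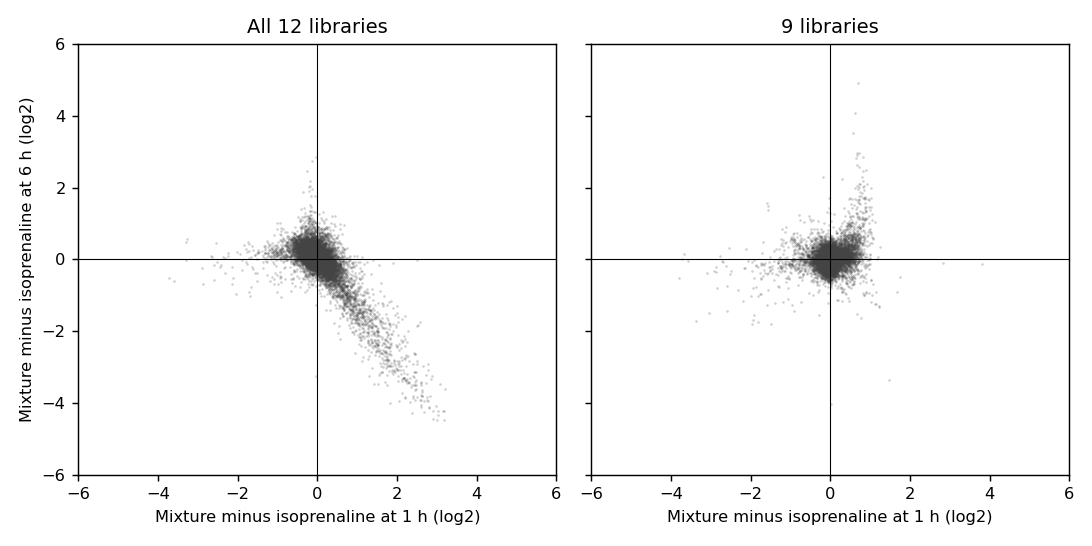
Mixture minus isoprenaline at 6 h (log2, vertical axis) against the same difference at 1 h (horizontal axis), a point per ID, with all 12 libraries on the left and without the 3 libraries that stand apart on the right. The left cloud slopes downwards (r of -0.771), and the right one does not (r of 0.255).

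The course over time within each exposure was compared in the same fit, a comparison added after the data were seen. In the mixture limma called 49 IDs (0.276%) between 6 h and 1 h, 16 higher (0.0903%) and 33 lower (0.186%) at 6 h, and edgeR called 33. In isoprenaline limma called 0 (0%) between 6 h and 1 h, with 1709 at an unadjusted p under 0.05, and edgeR called 0 with 1692. This does not show that the exposures differ in their course, since the test of that difference gave the 0 calls above. The 49 calls did not hold when single libraries were left out. Without mixture replicate 3 at 6 h there were 2159 calls and without isoprenaline replicate 2 at 1 h there were 2150, while 7 of the 12 fits gave 0, among them the 3 that each left out a mixture library at 1 h. The fit with the replicate block also gave 0. When the 3 libraries were left out there was 1 call in the mixture, against 196 in isoprenaline. The call in the mixture was Dapma7bEVm003567t1 once more. The 6 h minus 1 h differences of the 2 exposures correlated at r of 0.156 over IDs with all 12 libraries and at 0.768 without the 3.

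Propranolol at 1 mg/L was also given without isoprenaline, which allows its difference to be measured in the absence of the activator. Over both hours limma called 0 of 18522 IDs (0%) between propranolol 1 mg/L and control, with 283 (1.53%) at an unadjusted p under 0.05, and edgeR called 0 with 299. These fits did not pair libraries by replicate number, although at 6 h each library of these groups correlated best with its own number. The test of whether propranolol made a different change with than without isoprenaline also gave 0 calls (0%), with 174 IDs (0.939%) unadjusted, and edgeR gave 0 with 179. That test gave 1 call without the 3 libraries, Dapma7bEVm003567t1 again. Across 17722 IDs, the difference with isoprenaline and that without it correlated at r of 0.244 and had the same sign in 47.8%. These comparisons share no library. The correlation was -0.379 without mixture replicate 2 at 6 h and 0.611 without isoprenaline replicate 2 at 1 h, so its sign rested on single libraries.

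Whether the blocker changed the response to the activator was looked at on IDs that differed from control in both exposures together. To choose them, the mean of the mixture and isoprenaline groups was set against control at 6 h. Both entered with the same weight, which favours neither sign of mixture minus isoprenaline. An ID that moved in only 1 exposure has a smaller mean change and is less readily called. The lists therefore favour IDs that moved in both, and cannot show how many responses the blocker removed. limma called 1878 of 18522 IDs (10.1%), 445 higher (2.4%, median 0.72) and 1433 lower (7.74%, median -0.85) than in controls, and edgeR called 2183. With each library scaled by its median log ratio the split was 729 higher and 1428 lower. Leaving out control replicate 3 at 6 h left 382 calls, and leaving out control replicate 1 gave 3835, so the number of calls depended on single control libraries. Without the 3 libraries that stand apart there were 2265 calls, and with a surrogate variable in the fit there were 1009.

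On these IDs the exposures were each compared with control. For the 445 higher IDs the median at 6 h was 0.71 above control in the mixture and 0.73 above control in isoprenaline. For the 1433 lower IDs it was -0.83 in the mixture and -0.87 in isoprenaline. These distances share the same controls and chose the IDs, so they are given as a description. Of the higher list all 445 IDs were tested among the 12 libraries, and of the lower list 1266 of 1433, the other 167 being too low there. None was called between the mixture and isoprenaline (0 of 445 and 0 of 1266, beside 0% of all IDs). The unadjusted limma p was under 0.05 for 6 of the 445 and 10 of the 1266, beside 88 of all 17722 IDs (0.497%). Both lists thus lay above the share of all IDs. The median difference over both hours was 0.0071 for the higher IDs and -0.04 for the lower ones, beside -0.00026 over all IDs. The interval lay within 1 log2 unit for 98.7% of each list, beside 89.1% of all IDs. The fit that chose the lists used these 12 libraries too, and IDs with a wide spread are less readily called. The higher shares in the lists are therefore no independent result.

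Set out by library, the median level of the lower list at 6 h was 2.9, 3.25 and 2.76 on the log2(CPM + 1) scale in the mixture, against 3.05, 2.99 and 2.85 in isoprenaline. The libraries of the 2 exposures were interleaved. Propranolol 1 mg/L libraries held 3.48, 4.01 and 4.05, and control libraries 3.74, 4.24 and 4.17. The higher list had medians of 5.57, 5.48 and 5.66 in the mixture at 6 h, against 5.61, 5.67 and 5.64 in isoprenaline. There the control libraries held 5.26, 4.67 and 4.62, and the propranolol libraries 5.37, 4.92 and 5.08. The controls at 1 h held 3.1, 3.53 and 3.51 for the lower list and 5.45, 5.39 and 5.42 for the higher list. In both lists they lay nearer to the mixture and isoprenaline libraries at 6 h than the controls at 6 h did. How far the lists reflect a change of the controls between the hours was not tested. Since the libraries at 6 h chose the lists, the distance of the exposed libraries from the controls is no independent result.

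**Figure D4:**
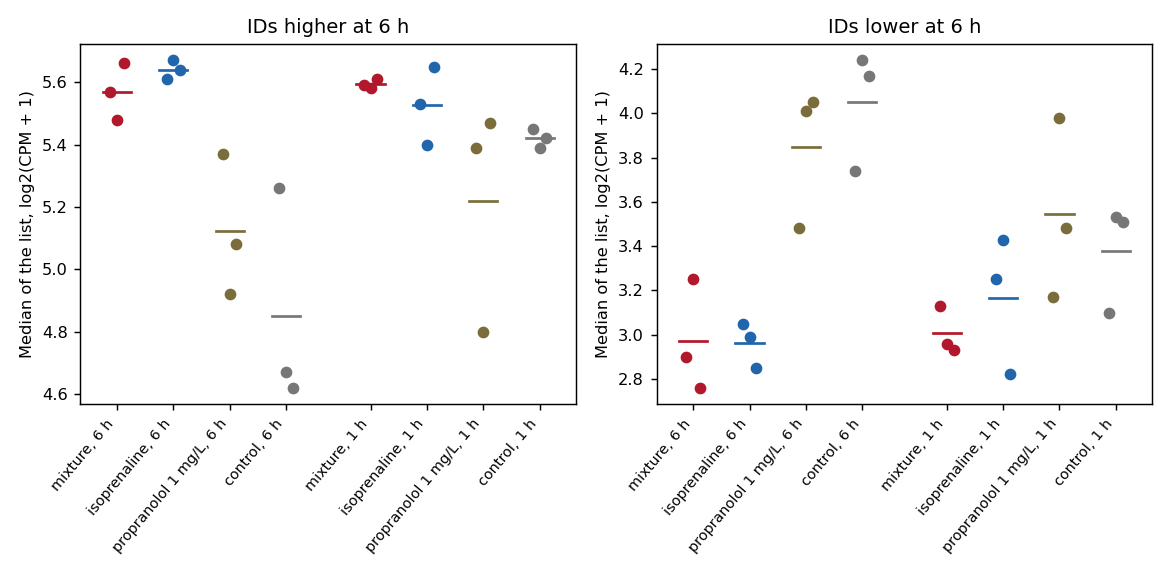
Median level (log2(CPM + 1), vertical axis) of the 445 IDs called higher and the 1433 called lower than control at 6 h, a point per library and a bar at the mean of each group of 3. At 6 h the mixture (2.9, 3.25 and 2.76 for the lower list) and isoprenaline (3.05, 2.99 and 2.85) overlap and lie below the controls (3.74, 4.24 and 4.17).

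The side on which the mixture fell within the lists was also counted. The mixture at 6 h lay above isoprenaline for 65.2% of the lower list and 39.3% of the higher list, against 59.2% of all IDs. With all 12 libraries that is towards control in both lists, but the side depended on single libraries. Without mixture replicate 2 at 6 h, and with the lists chosen anew, the shares were 38% and 61.5%, against 52.1% of all IDs. That is away from control in both lists. When the 3 libraries were left out the lists were chosen anew, at 553 higher and 1712 lower IDs, and the mixture, now 1 library, lay above isoprenaline for 16.5% of the lower and 79% of the higher list, against 44.6% of all IDs. The equal weight of the exposures no longer kept the choice even there, since a single mixture library weighed as much as 3 isoprenaline libraries. Whether this moved the shares was not tested. Lists chosen on propranolol 4 mg/L against control are described below. The mixture is not in that contrast, but its libraries share in the estimate of the spread. Without the 3 libraries these lists were chosen anew as well, at 633 lower IDs (6 h) and 148 (24 h). The share of their lower IDs went from 38.7 to 11.5% (6 h) and from 54.1 to 24.3% (24 h). That of their higher IDs stayed at 66.7% (6 h) and went from 74.5 to 32.4% (24 h). All these shares are a description of the lists and do not show on which side of isoprenaline the mixture lies.

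IDs chosen on propranolol 4 mg/L against control, a contrast of libraries outside the 12, gave further lists. The spread in that fit was estimated from all 45 libraries, these 12 among them. At 6 h limma called 754 of 19159 IDs between propranolol 4 mg/L and control (3.94%), 18 higher (0.094%) and 736 lower (3.84%). Propranolol 4 mg/L had only replicates 1 and 2 at 6 h. At 24 h it called 308 (1.61%), 94 higher (0.491%) and 214 lower (1.12%). Of the lower IDs, 669 of 736 and 159 of 214 were tested among the 12 libraries. Between the mixture and isoprenaline 0 of the IDs tested in any of these lists were called. The median differences over both hours were 0.06 for the 18 higher and -0.06 for the 736 lower IDs of 6 h, and -0.0068 and -0.05 for those of 24 h, beside -0.00026 over all IDs.

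The largest changes from control at 6 h that passed the naming rule were 2 falls and 2 rises. Dapma7bEVm016578t1 held 0.259, 0.307 and 0.338 CPM in the mixture and 0.142, 0.115 and 0.289 CPM in isoprenaline at 6 h, against 75, 558 and 246 CPM in control. All 6 exposed libraries were near 0, with 21 reads in all in the mixture and 10 in isoprenaline, and the controls themselves spread over a wide range. The ID reached 1 CPM in none of the mixture and isoprenaline libraries at either hour and passed the filter through control and propranolol alone, so its values are given as a description. Propranolol 1 mg/L libraries at 6 h held 41.7, 398 and 194 CPM, a range that overlapped the controls. The ID was too low in the 12 libraries to be tested between the exposures.

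Dapma7bEVm021384t1 held 4.27, 5.52 and 2.83 CPM in the mixture and 3.85, 2.18 and 2.66 CPM in isoprenaline at 6 h, against 111, 688 and 311 CPM in control. It fell by 6.03 on the log2 scale relative to control, with a limma adjusted p of 0.000273. The mixture and isoprenaline libraries overlapped, and their difference at 6 h was 0.41, with a 95% interval of -0.39 to 1.21. In both IDs, control and propranolol replicate 2 were the highest libraries of their groups.

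Dapma7bEVm024672t1 rose, at 24.8, 16.5 and 25.9 CPM in the mixture and 23.9, 22.2 and 25.3 CPM in isoprenaline at 6 h, against 12.3, 4.28 and 4.02 CPM in control. Its change from control was 1.76 ± 0.33 (log2, SE), with a limma adjusted p of 0.00373. Dapma7bEVm010955t1 held 93, 50.9 and 87.6 CPM in the mixture and 97.4, 104 and 104 CPM in isoprenaline at 6 h, against 50.8, 22.3 and 18.5 CPM in control. Its change was 1.62 ± 0.31 (limma adjusted p of 0.00444), and 1.34 with an adjusted p of 0.0527 without control replicate 3. At 1 h the controls held 139, 142 and 136 CPM, so the exposed animals at 6 h were higher than their own hour's controls and lower than the controls at 1 h.

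At 1 h few IDs were called. limma called 5 of 18522 IDs (0.027%) between the mean of the mixture and isoprenaline and control, 3 higher (0.0162%) and 2 lower (0.0108%), and edgeR called 13. The 5 are named because they are few, and so were chosen after their values were seen. Each of the 5 was lost, with adjusted p up to 0.227, when any of the 3 controls at 1 h was left out, and leaving out control replicate 1 left 0 calls. Dapma7bEVm021605t1 and Dapma7bEVm011182t1 were also lost in 4 and 3 fits without another library.

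Dapma7bEVm007881t1 held 26.8, 39.7 and 44.3 CPM in the mixture and 47.9, 47.9 and 40 CPM in isoprenaline at 1 h, against 6.44, 7.92 and 9.55 CPM in control. The change was 2.22 ± 0.32 (log2, SE, limma adjusted p of 0.0154), and at 6 h it was 1.62 (limma adjusted p of 0.00527). At 6 h the mixture libraries held 61.9, 12.9 and 44.6 CPM, the isoprenaline libraries 40.3, 40.1 and 23 CPM and the control libraries 11.6, 8.19 and 11 CPM. Mixture replicate 2, one of the libraries that stand apart, was the nearest to control. Propranolol at 1 mg/L without isoprenaline gave 7.7, 7.21 and 7.4 CPM at 6 h and 8.26, 9.61 and 9.42 CPM at 1 h, close to control.

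Dapma7bEVm009229t1, the larger of the falls at 1 h, was at 32, 33.5 and 29.7 CPM in the mixture and 100, 21.9 and 24.8 CPM in isoprenaline, against 145, 322 and 240 CPM in control. The change was -2.65 ± 0.39 at 1 h (limma adjusted p of 0.0154), and -3.09 ± 0.39 at 6 h (limma adjusted p of 0.000293). Isoprenaline replicate 1 stood apart from the other exposed libraries at 1 h. At 6 h the mixture held 12.8, 41.2 and 19.3 CPM and isoprenaline 13.1, 22.1 and 27.5 CPM, against 199, 185 and 173 CPM in control.

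Dapma7bEVm004050t1 made a small change with a narrow spread. It held 16.6, 18.4 and 18.9 CPM in the mixture and 18.3, 17.8 and 16 CPM in isoprenaline at 1 h, against 24.8, 27.9 and 25.3 CPM in control, a change of -0.53 ± 0.08 (log2, SE, limma adjusted p of 0.0154). At 6 h the values were 20.6, 20.7 and 20.1 CPM in the mixture and 19.9, 19.8 and 19.4 CPM in isoprenaline, against 30.5, 36.9 and 34 CPM in control. The difference between the exposures over both hours was 0.05, with a 95% interval of -0.08 to 0.18, the narrowest of the named IDs.

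The other IDs called at 1 h, both higher, did not pass the test at 6 h. Dapma7bEVm021605t1 averaged 14 ± 3.36 CPM in the mixture and 17.3 ± 3.03 CPM in isoprenaline at 1 h, against 5.55 ± 1.09 CPM in control (SD, n = 3 each), with a change of 1.34 (limma adjusted p of 0.0275). At 6 h it was 0.44, with a limma adjusted p of 0.176. Dapma7bEVm011182t1 averaged 349 ± 45 CPM in the mixture and 437 ± 120 CPM in isoprenaline at 1 h, against 171 ± 21.8 CPM in control (SD, n = 3 each), with a change of 1.18 (limma adjusted p of 0.0275). At 6 h it was 0.21, with a limma adjusted p of 0.447. In all 5 IDs the 95% interval of mixture minus isoprenaline at 1 h included 0.

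**Figure D5:**
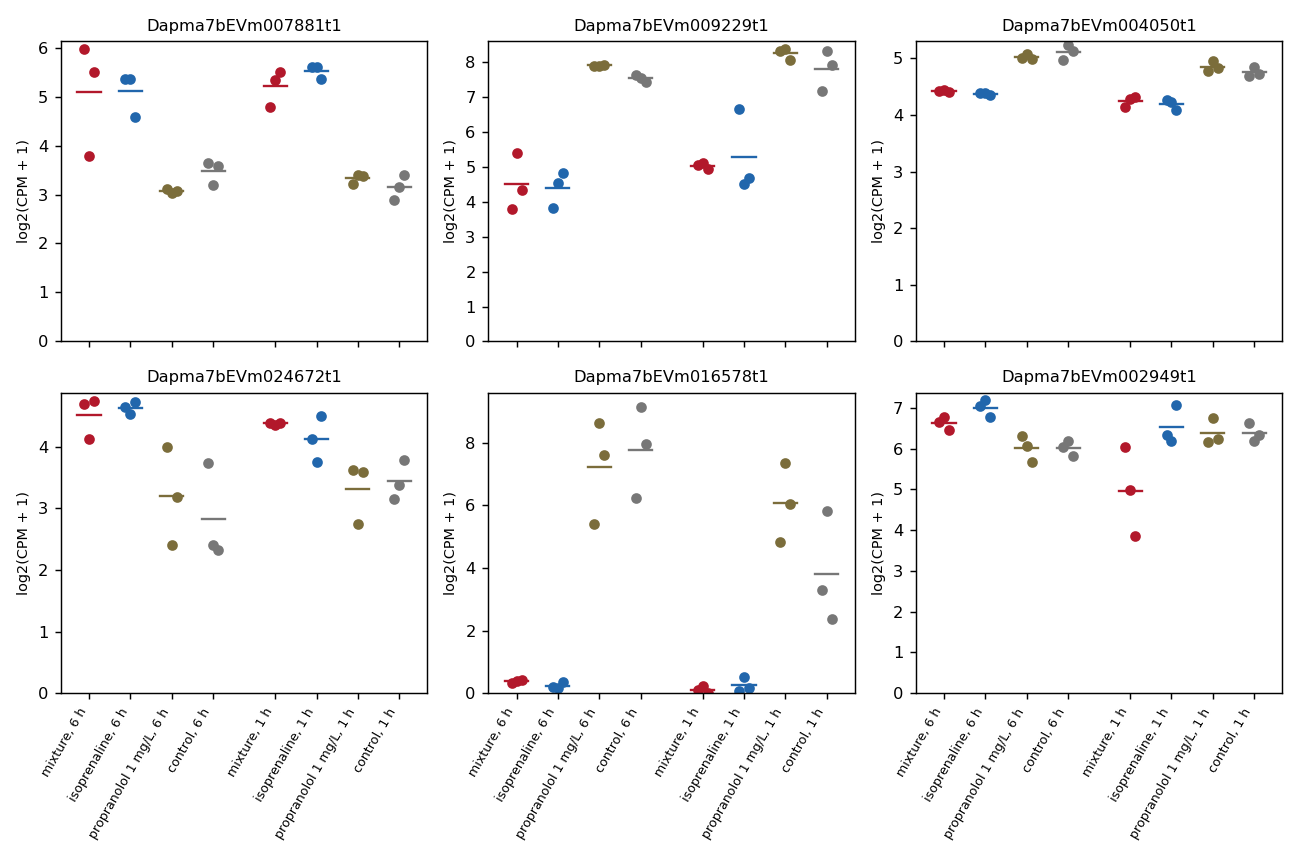
Level of 6 named IDs (log2(CPM + 1), vertical axis), a point per library and a bar at the mean of each group of 3, for the mixture, isoprenaline, propranolol 1 mg/L and control at 6 h and at 1 h. In all 6 panels every mixture and isoprenaline point at 6 h lies on the same side of every control point. Dapma7bEVm004050t1 is an example (20.6, 20.7 and 20.1 CPM in the mixture, 19.9, 19.8 and 19.4 CPM in isoprenaline, 30.5, 36.9 and 34 CPM in control). In Dapma7bEVm002949t1 the mixture lies below isoprenaline at both hours. The naming rule required the separation from control for Dapma7bEVm024672t1 and Dapma7bEVm016578t1, and that from isoprenaline for Dapma7bEVm002949t1.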

How the data were processed

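The deposited table holds CPM made by the authors for 19159 IDs in 45 libraries, and its columns were matched to samples by their titles. Per the submitters' processing notes, the tools were Bowtie2 2.1.0, Trim Galore 0.3.2, edgeR and HTSeq, with no roles stated. The build of the genome is not given in the sources used here. Every value was a whole multiple of its library's smallest step (100% of 862155 values within 0.01 read), so whole reads were recovered. Over the 45 libraries they sum to 13.5 to 43.7 M, and a floor of 3 reads stands for 0.0686 to 0.222 CPM, which covers counting error only.

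The members and lists were chosen with earlier results of these data known. The main test was limma 3.58.1 (trend, robust; R 4.3.3) on log2(CPM + 1) with Benjamini-Hochberg adjustment over all IDs that reached 1 CPM in 3 or more libraries of the fit. Mixture against isoprenaline used 12 libraries with hour as a block, single hours the 4 group means, and comparisons with propranolol 1 mg/L or control the 8 group means of 24 libraries. Lists on propranolol 4 mg/L came from all 45. edgeR 4.0.16 (quasi-likelihood) on the recovered reads and sva 3.50.0 (1 surrogate variable) were alternatives, as were a pseudocount of 0.25, other filters, scaling, fits and each library left out. The steps were tested on simulated data.

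The named IDs are the 2 largest changes in each direction among those called, with a mean of at least 5 CPM and groups that do not overlap. For mixture against isoprenaline, where none was called, the smallest unadjusted p among IDs that do not overlap at both hours took their place. A chi-square test found more than sampling noise between replicates in all 24 pairs (17.4 to 348 per degree of freedom), so no library was treated as deposited again. No label states what a replicate number stands for. Deviations of same-numbered mixture and isoprenaline libraries correlated at 0.149, 0.476 and 0.219 at 6 h, above 0.1 in every pair, and at -0.0665, -0.373 and -0.262 at 1 h. Those of propranolol 1 mg/L and control were at least 0.392 at 6 h and 0.227 at 1 h. Only for propranolol 1 mg/L and control at 6 h did every library correlate best with the library of its own number. For mixture and isoprenaline these correlations do not show that the numbers pair the libraries, at either hour. Nor do they for propranolol 1 mg/L and control at 1 h.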

Additional observations from a re-analysis of the deposited data

Results flagged for a closer look

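The difference between the mixture and isoprenaline changed sides between the hours for 54 IDs (0.305%). In 45 of them (0.254%) the 3 mixture libraries lay wholly above the 3 isoprenaline libraries at 6 h and wholly below at 1 h, and in 9 (0.0508%) the reverse. For 1 named ID, Dapma7bEVm010955t1, this was the case too. At 6 h it held 93, 50.9 and 87.6 CPM in the mixture, against 97.4, 104 and 104 CPM in isoprenaline, and at 1 h 120, 122 and 133 CPM in the mixture, against 115, 104 and 111 CPM in isoprenaline. Its difference at 6 h minus that at 1 h was -0.622 (log2), with an unadjusted p of 0.0466 and an adjusted p of 0.57 by limma and 0.732 by edgeR. Mixture replicate 2 at 6 h, the lowest of these libraries at 50.9 CPM, is among the 3 that stand apart. The change with the hour was tested across all IDs, and 0 were called. Groups of 3 libraries can lie wholly apart by chance, and the 54 were not set against the number that chance would give. Nor were they counted anew without the 3 libraries.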

How the results depend on the processing

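The counts of mixture against isoprenaline stayed at 0 under every other pseudocount, filter, scaling and fit and with each library left out, at either hour, over both and for 6 h minus 1 h, the fit with the replicate block among them. So did those of propranolol with minus without isoprenaline. Without the 3 libraries that stand apart (an alternative added after seeing the data, like the surrogate variable) there was 1 call each at 6 h, for 6 h minus 1 h and for propranolol with minus without isoprenaline. No named ID changed direction, while correlations and list medians near 0 crossed it, as did the differences in the first principal component (8.24, and -6.4 without mixture replicate 2 at 6 h) and in the share of the 10 most abundant IDs (-0.217, and 0.0417 without isoprenaline replicate 1 at 1 h), neither of which passed its permutation test. Except where stated, the cause of a change was not tested. The limits are the depth of 13.5 to 40.9 M reads in the 12 libraries, 3 libraries per group, and the 3 that stand apart, which leave 1 mixture library at 6 h when left out.

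For the mixture and isoprenaline against control at 6 h, 1878 calls became 1030 with all 16 groups in the fit, 2916 with the replicate block, 1009 with a surrogate variable and 382 to 3835 with each library left out. At 1 h the 5 calls became 11 with a pseudocount of 0.25, 8 with a mean of at least 5 CPM, 13 with edgeR, 8 without the robust option, 8 with the replicate block, 66 with a surrogate variable, 10 without the 3 libraries and 0 to 12 with each library left out. The numbers do not pair these exposures with control (lowest r of -0.548 at 6 h), so the block has no design behind it there. For the mixture at 6 h against 1 h, 49 calls became 23 with a pseudocount of 0.25, 85 with scaling by the median log ratio, 0 with the replicate block, 88 with a surrogate variable, 1 without the 3 libraries and 0 to 2159 with each left out, the highest without mixture replicate 3 at 6 h. For isoprenaline at 6 h against 1 h, 0 calls became 104 with a surrogate variable, 196 without the 3 libraries and 0 to 8 with each left out. Propranolol 1 mg/L against control gave 0 to 4 calls with each left out.

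The correlation of the hours (-0.771) was 0.255 without the 3 libraries and -0.849 to 0.148 with each left out, and the share of the same sign (27.2%) was 58.3% and 23.4 to 49.2%. Against propranolol alone the correlation (0.244) ranged from -0.379 to 0.611 with each left out, and the share (47.8%) was 53.8% without the 3 libraries and 43.8 to 53.5%. The correlation of the time courses (0.156) was 0.768 and -0.106 to 0.736. Intervals within 1 (89.1% of IDs) became 86% with a pseudocount of 0.25, 86.8% with a mean of at least 5 CPM, 92.5% without the 3 libraries and 87.1 to 89.5% with each left out. Within 0.5 (66.6%) they became 56.2% with a pseudocount of 0.25, 76.6% without the 3 libraries and 60.2 to 67.1%. The median half-width (0.318) became 0.367, 0.255 and 0.287 to 0.351 in the same order, and the number of IDs over 1 (36) became 61, 136 and 24 to 442, the highest without isoprenaline replicate 2 at 1 h. The median differences of the lists on propranolol 4 mg/L became 0.0208 (higher, 6 h) and -0.104 (higher, 24 h) without the 3 libraries. With each left out they were 0.0144 to 0.0983 and -0.061 to 0.0254 for these, and -0.127 to -0.0242 (lower, 6 h) and -0.123 to -0.00642 (lower, 24 h). Those of the higher and lower lists of the response at 6 h were -0.0432 to 0.0414 and -0.111 to 0.0309. The difference in reads was 5.13 to 10.1 M with each library left out, with exact permutation p up to 0.095.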

Other observations

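Of all 19159 IDs, 18 had 0 reads in exactly 1 of the 45 libraries and at least 5 CPM in each of the other 44. These 18 zeros fell in 18 different libraries, and no library held more than 1. With at least 2 CPM in the other 44 there were 22 such IDs in 22 libraries, and with at least 1 CPM there were 30 in 26. At 5 CPM, 6 of the 12 mixture and isoprenaline libraries held such a zero, 1 of the mixture and 5 of isoprenaline. Dapma7bEVm010448t1 was at 0 in isoprenaline replicate 1 at 1 h and between 133 and 260 CPM in every other library, where 3 reads stand for 0.136 CPM. Dapma7bEVm003567t1, the ID called when the 3 libraries that stand apart were left out, was at 0 in mixture replicate 3 at 6 h and between 12.5 and 22.3 CPM in the other 44 libraries. These IDs were chosen after their values were seen, and what lies behind the zeros was not tested.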
